A study of Mus musculus with 6 samples.

Results

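Immediate early genes are switched on within minutes of a T cell receptor (TCR) signal, from transcription factors already present in the cell and without new protein synthesis. Their transcripts are short-lived, so their level reports recent signalling, and it also responds to stress during cell isolation. In natural killer T (NKT) cells, which are selected in the thymus by strong TCR signals from lipids on CD1d, Egr2 is required for development in mice. The genes described here were chosen by name from a list of 10 immediate early and early TCR-responsive genes, taking each one that has a row in the deposited table. Of the 10, 8 had a row, among 10772 rows in all. They are the zinc-finger transcription factor genes Egr1 and Egr2, the orphan nuclear receptor gene Nr4a1, the AP-1 gene Junb, the transcription factor gene Irf4, the nuclear protein gene Ier2, the phosphatase gene Dusp2 and the surface receptor gene Cd69. Fos and Jun, which encode the other AP-1 subunits on the list, had no row, and every row of the table exceeded RPKM 3 in at least 2 libraries. All 8 with a row passed the filter for testing, which asked for RPKM 1 or more in 3 or more libraries.

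The 6 libraries were made from mouse thymic NKT cells of the fraction called P1, sorted fresh as positive for a CD1d tetramer loaded with PBS-57 and negative for CD24, NK1.1 and CD44. The 3 DKO libraries came from mice labelled UTX/JMJD3 DKO, for the histone H3 lysine 27 demethylases encoded by Kdm6a and Kdm6b, and the 3 WT libraries came from wild-type mice. All were on a mixed C57BL/6 and 129 background, with 2 female libraries (replicates 1 and 2) and 1 male library (replicate 3) for each genotype. The promoter or cell type in which the deletion took place, the age of the mice and any pooling of animals were not stated in the labels. Nor do they state that each library was 1 animal, and the p-values below reflect library-to-library spread, which may be technical. Values are RPKM, reads scaled to gene length and library size, which allows levels of different genes to be set side by side.

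The libraries differed in ways that the genotype does not account for, and these touch the results below. The deposited table heads 1 column of each genotype Set1, and these were taken as the replicate 1 libraries by genotype and set number. The descriptions number both female DKO samples 2, and the numbers used here follow the titles. The Set1 pair was deeper (34.4 M reads for DKO and 32.4 M for WT, against 5.04 M to 7.24 M in the other 4 libraries). These 2 libraries also held transcripts of CD4 CD8 double-positive thymocytes, such as Cd8a at RPKM 147.6 (DKO) and 173.9 (WT), against 0.00 to 5.71 in the other 4. Not every marker listed for these thymocytes did so. Cd1d1 was at 37.8 (DKO) and 30.1 (WT) in Set1 and at 21.0 to 57.3 elsewhere, and Rag1 and Rag2 had no row. Dntt, the terminal transferase gene of immature thymocytes, was at 65.8 (DKO) and 84.2 (WT) in Set1 and at 0.00 to 1.73 elsewhere. It exceeded RPKM 3 in Set1 alone. Every row did so in at least 2 libraries, so the excess of Dntt in Set1 came with having a row. The NKT markers were present in every library, with the invariant joining segment Traj18 at 167 to 176 in DKO and 115 to 157 in WT, and the lineage factor gene Zbtb16 at 0.78 to 5.35 in DKO and 2.67 to 3.50 in WT. Of the genes for surface proteins gated out, Klrb1c (NK1.1) was at 0.55 to 0.78 in DKO and 3.51 to 10.8 in WT, Cd44 at 0.27 to 4.74 in DKO and 0.83 to 3.73 in WT, and Cd24a at 0.00 to 21.6 in DKO and 4.50 to 11.2 in WT. Klrb1c exceeded RPKM 3 in WT alone and so had a row only through WT. Whole-gene values of the targeted genes do not separate deleted from kept exons and so do not check the labels. Kdm6a was at 4.59 ± 0.94 in DKO and 4.62 ± 2.57 in WT, and Kdm6b at 1.66 ± 0.83 in DKO and 2.80 ± 1.05 in WT (SD, n = 3 each, exact two-sided permutation p = 0.8 and 0.2, with 0.1 the smallest p this design allows).

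None of the 8 immediate early genes passed the test of DKO against WT, and the libraries of the 2 genotypes overlapped for each. By limma on log2(RPKM + 1) with Benjamini-Hochberg adjustment over all 10694 genes tested, 0 of the 8 passed an adjusted p of 0.05 and 0 had an unadjusted p under 0.05, against 0.0842% and 11.0% of all genes. Adjusted p ran between 0.513 for Irf4 and 0.985 for Egr1. The DKO and WT values overlapped in 8 of 8, while 17.2% of all genes had groups that did not overlap. The log2 changes lay above 0 for 5 genes and below 0 for 3, with a median of 0.02 beside -0.11 for all genes tested. Quantile normalization moved these medians to 0.10 for the members and 0.01 for all genes, and turned the sign of none of the 8. A model for reads recovered from the RPKM steps (voom) also called 0 of the 8, with 1, Egr2, under 0.05 before adjustment. Its adjusted p from voom in limma was 0.271.

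Levels per gene length spanned a wide range. Dusp2 stood above every other member in 6 of 6 libraries, at a median RPKM of 309.8, and lay between the 95.4 and 96.7 percentiles of all tested genes. Cd69 and Egr1 followed at medians of 45.5 and 44.4, with Cd69 above Egr1 in 3 of 6 libraries. Junb (24.6) and Egr2 (24.0) came next, also in that order in 3 of 6, then Ier2 at 18.9. Nr4a1 and Irf4 were lowest at medians of 9.07 and 8.73, again in that order in 3 of 6. Apart from the step between Dusp2 and Cd69, the ranges of each pair of neighbours overlapped.

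**Figure D1:**
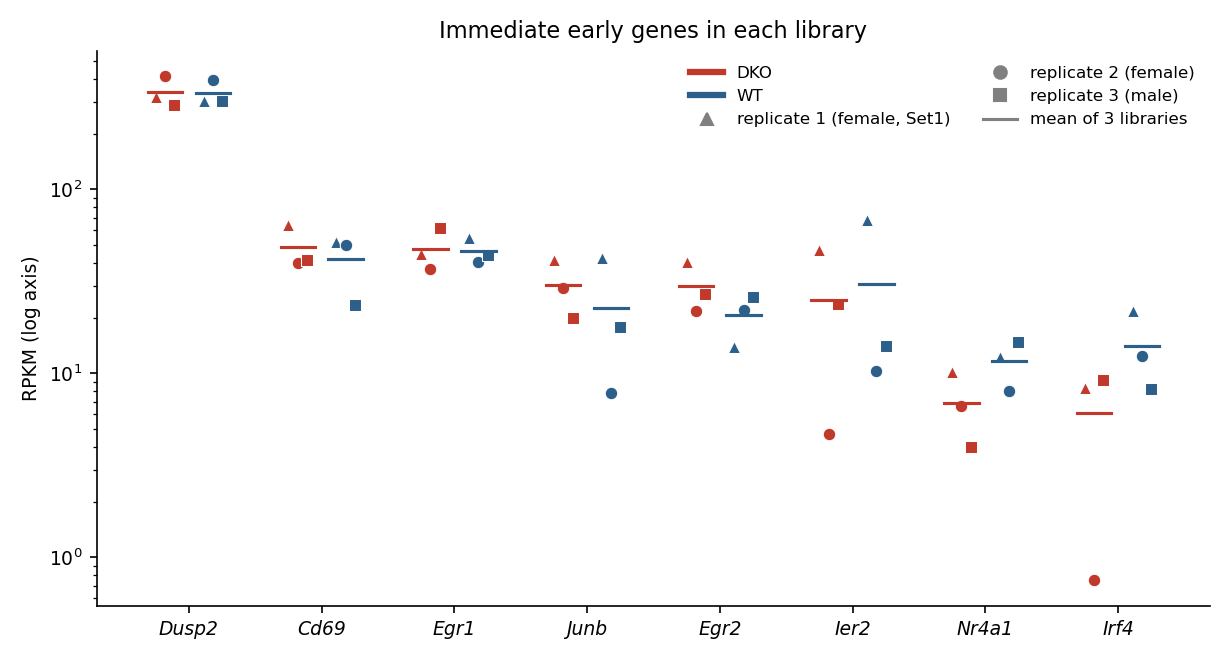
RPKM (log axis) of the 8 immediate early genes in each library, DKO in red to the left of WT in blue, with a marker for each replicate and a bar for the mean of 3 libraries. The 6 values of Dusp2 and the 6 of Egr1 each lie in a narrow band, the Set1 triangles of Junb, Ier2 and Cd69 lie above all other libraries, and the lowest point is Irf4 in DKO replicate 2 at 0.75.

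The EGR genes, whose proteins bind a shared GC-rich site, differed in how the libraries spread. Egr1 was at RPKM 44.5, 36.9 and 61.6 in DKO replicates 1 to 3 and at 54.3, 40.4 and 44.3 in WT replicates 1 to 3. The highest and the lowest of the 6 libraries were both DKO, so the WT range lay within the DKO range. Its log2 change was 0.02 ± 0.28 (SE), with a 95% interval of -0.61 to 0.65. Egr2 was at 40.5, 21.8 and 26.9 in the DKO libraries and at 13.9, 22.1 and 25.9 in the WT libraries. The Set1 libraries held both extremes, the highest value in DKO and the lowest in WT, and the other 4 libraries lay close together. The log2 change of Egr2 was 0.50 ± 0.36 over 6 libraries (adjusted p = 0.638, limma), 1.48 in the Set1 pair and 0.02 in the other 4. Without DKO replicate 1 it was 0.26, and without WT replicate 1 also 0.26. Reads behind these Set1 values were 4134 in DKO and 1337 in WT.

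Nr4a1, which encodes the receptor NUR77 often used to read TCR signal strength, was at RPKM 10.1, 6.64 and 3.96 in DKO and 12.2, 8.01 and 14.8 in WT. The lowest pair were DKO libraries, and DKO replicate 1 exceeded WT replicate 2. The log2 change was -0.72 ± 0.45 (adjusted p = 0.585, limma), with an interval of -1.72 to 0.28. It was -0.25 in the Set1 pair and -0.95 in the other 4 libraries.

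Irf4, a transcription factor gene induced in proportion to TCR signal strength in T cells, had the log2 change furthest from 0 among the 8. It was at 8.29, 0.75 and 9.17 in DKO and 21.7, 12.4 and 8.25 in WT. One DKO library, replicate 2, stood far below the rest, while WT replicate 3 lay under DKO replicates 1 and 3. The log2 change was -1.36 ± 0.69 (adjusted p = 0.513, limma), with an interval of -2.90 to 0.17, and it was -1.29 in the Set1 pair and -1.40 in the other 4 libraries. Without DKO replicate 2 it was -0.54. The low value rested on 25 reads, and an exact Poisson 95% interval of RPKM 0.485 to 1.11 covers counting error only, since reads without molecular identifiers are not independent molecules.

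Junb and Ier2 were highest in the Set1 libraries, a contrast given below that neither passed. Junb, an AP-1 subunit gene, was at 41.4, 29.2 and 20.1 in DKO and 42.4, 7.87 and 17.8 in WT. Both Set1 libraries were the highest and nearly equal. Its log2 change by genotype was 0.63 ± 0.54 (adjusted p = 0.697, limma), and it was -0.03 in the Set1 pair and 0.96 in the other 4. Without WT replicate 2 the change was 0.07, and without WT replicate 1 it was 1.21. Ier2, a nuclear protein gene of the serum response, was at 47.0, 4.67 and 23.7 in DKO and 68.0, 10.4 and 14.0 in WT. Within WT alone the highest library was 6.55 times the lowest, and within DKO 10.1 times. The log2 change was -0.27 ± 0.83 (adjusted p = 0.926, limma), with an interval of -2.13 to 1.59, the widest of the 8. Without WT replicate 1 it was 0.53 and without DKO replicate 1 it was -0.94, so its direction rested on single libraries. DKO replicate 2 held 22 reads of Ier2 and the shallow WT libraries 50 and 47.

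Dusp2, the nuclear phosphatase gene that switches off MAP kinases, was the most even member. It was at 317, 414 and 286.7 in DKO and 302.4, 393 and 302.0 in WT. Replicate 2 was the highest library in each genotype, and the other 4 lay together. The log2 change was 0.02 ± 0.21 (adjusted p = 0.978, limma), with an interval of -0.46 to 0.50. Cd69, an early activation receptor that holds the egress receptor S1PR1 inside the cell, was at 64.2, 39.8 and 41.2 in DKO and 52.1, 49.8 and 23.6 in WT. Both Set1 libraries were again the highest, and the male WT library was the lowest. The log2 change was 0.25 ± 0.36 (adjusted p = 0.825, limma), with an interval of -0.55 to 1.06. In bulk RNA, fewer cells with a transcript and less of it per cell cannot be told apart.

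**Figure D2:**
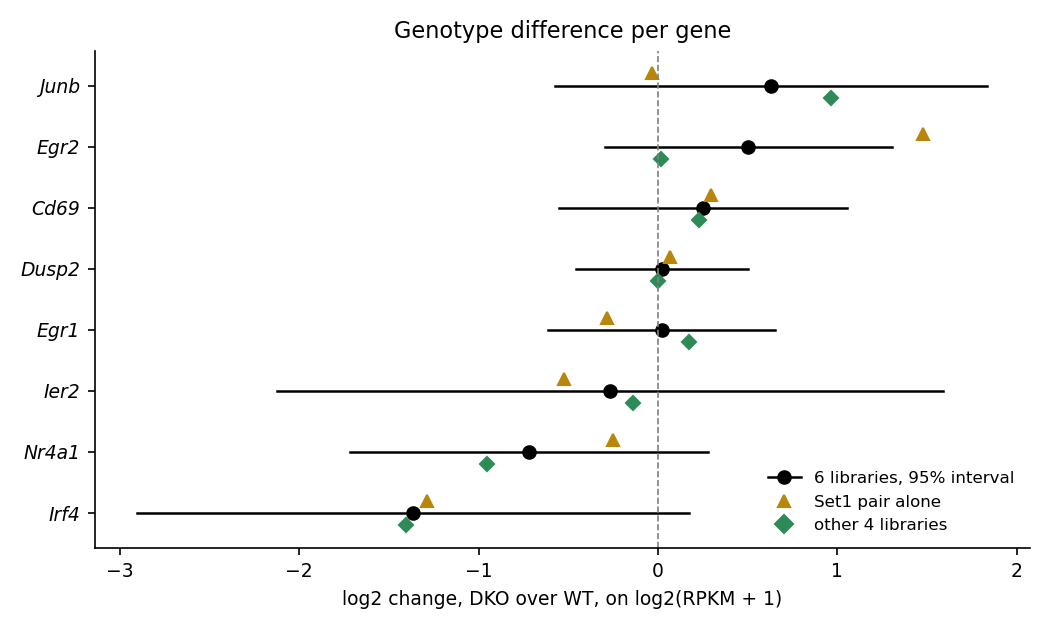
Log2 change of DKO over WT on log2(RPKM + 1) for each gene, with the 95% interval of limma over 6 libraries (black), the Set1 pair alone (triangles) and the other 4 libraries (diamonds). All 8 intervals include 0, and the Set1 pair and the other libraries differ most for Egr2 (1.48 and 0.02) and Junb (-0.03 and 0.96).

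The spread within a genotype ordered the genes differently from the genotype change. On the log2 scale the residual standard deviation was 0.25 for Dusp2 and 0.30 for Egr1, at the 13.7 and 21.5 percentiles of all tested genes. It was 0.44 for Egr2, 0.51 for Nr4a1 and 0.51 for Cd69, at the 43.9, 53.0 and 53.9 percentiles. Junb (0.88), Irf4 (1.11) and Ier2 (1.49) were at the 83.8, 91.6 and 97.9 percentiles. Over 6 libraries the highest value was 1.44 times the lowest for Dusp2 and 1.67 times for Egr1, against 14.6 times for Ier2 and 29.0 times for Irf4.

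Immediate early promoters are known for short elements bound by factors that kinases activate, and the windows that held such letters are shown so that the members can be set side by side. Sequences are from RefSeq (GRCm38.p6), where 5 of the 8 members were matched, and each shows the 150 bases before an annotated start. Motifs searched on both strands were the CArG box, bound by serum response factor, the EGR site GCGNGGGCG, the cyclic AMP element core TGACG and the AP-1 site TGANTCA, and no match overlapped another in the windows shown. Capitals mark matches. Of 5 listed starts of Egr2, 4 had a CArG box in this window, and 1 window for each of its 2 distinct boxes is given (chr10:67537416-67537565 and chr10:67537719-67537868, plus strand). Nr4a1 (chr15:101266696-101266845, plus strand) held an EGR site and 2 TGACG cores, Dusp2 (chr2:127336009-127336158, plus strand) an EGR site, and Junb (chr8:84978749-84978898, minus strand) a TGACG core. These 5 windows overlapped no annotated exon. The Irf4 window held no match.
Egr2 upstream window: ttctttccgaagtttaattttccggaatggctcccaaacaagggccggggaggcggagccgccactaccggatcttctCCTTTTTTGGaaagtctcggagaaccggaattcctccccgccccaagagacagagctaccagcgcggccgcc
Egr2 downstream window: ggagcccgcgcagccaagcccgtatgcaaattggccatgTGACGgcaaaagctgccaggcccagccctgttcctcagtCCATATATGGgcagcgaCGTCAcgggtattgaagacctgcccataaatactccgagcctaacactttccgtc
Nr4a1: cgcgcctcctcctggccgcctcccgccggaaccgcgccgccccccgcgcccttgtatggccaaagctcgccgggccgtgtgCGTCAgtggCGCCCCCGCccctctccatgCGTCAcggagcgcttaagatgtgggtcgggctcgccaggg
Dusp2: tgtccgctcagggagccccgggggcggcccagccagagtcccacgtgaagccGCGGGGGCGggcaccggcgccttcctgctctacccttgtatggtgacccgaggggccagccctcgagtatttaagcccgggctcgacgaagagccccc
Junb: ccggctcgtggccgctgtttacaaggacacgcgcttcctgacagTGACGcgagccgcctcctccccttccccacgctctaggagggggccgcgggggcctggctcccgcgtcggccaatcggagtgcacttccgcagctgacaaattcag
Among 32544 RefSeq windows of this length, 0.922% held a CArG box, 3.84% the EGR site, 13.4% the TGACG core and 4.24% the AP-1 site. A match is a run of letters and does not show binding in these cells.

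Levels were also compared between Set1 and the other libraries. In 3 genes, Ier2, Junb and Cd69, both Set1 libraries lay above all other 4, as in 11.0% of all genes tested. A limma contrast of Set1 against the other 4 with genotype in the model, chosen after the values were seen, called 0 of the 8 (0.103% of all genes) and left 2 at an unadjusted p under 0.05 (14.1% of all genes). Both of the 2, Ier2 and Junb, were higher in Set1, as were 6.62% of all genes at that p. Ier2 was 2.21 ± 0.55 log2 units higher in Set1 (SE, adjusted p = 0.184, limma), with means of RPKM 57.5 in Set1 and 13.2 in the other 4. Junb was 1.25 ± 0.42 higher (adjusted p = 0.259, limma), with means of 41.9 and 18.7. For Cd69 the difference was 0.62 ± 0.32 and for Irf4 1.08 ± 0.68, while Egr1 (0.13), Egr2 (-0.01) and Dusp2 (-0.15) were close to 0. The 11 genes that passed over the whole table included Dntt, Cd8a and Cd8b1, which were 5.70, 5.51 and 4.56 log2 units higher in Set1. The 8 double-positive thymocyte markers in the table, of 10 listed, summed to RPKM 471 (DKO) and 454 (WT) in Set1 and to at most 77.5 elsewhere. Of that 77.5, in DKO replicate 2, Cd1d1 gave 57.3. Dntt, Ptcra and Arpp21 exceeded RPKM 3 in Set1 alone and so had a row only through Set1, which fixed the direction of their difference. The part of double-positive thymocytes in the Ier2, Junb and Cd69 levels was not tested, and set and depth cannot be told apart.

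**Figure D3:**
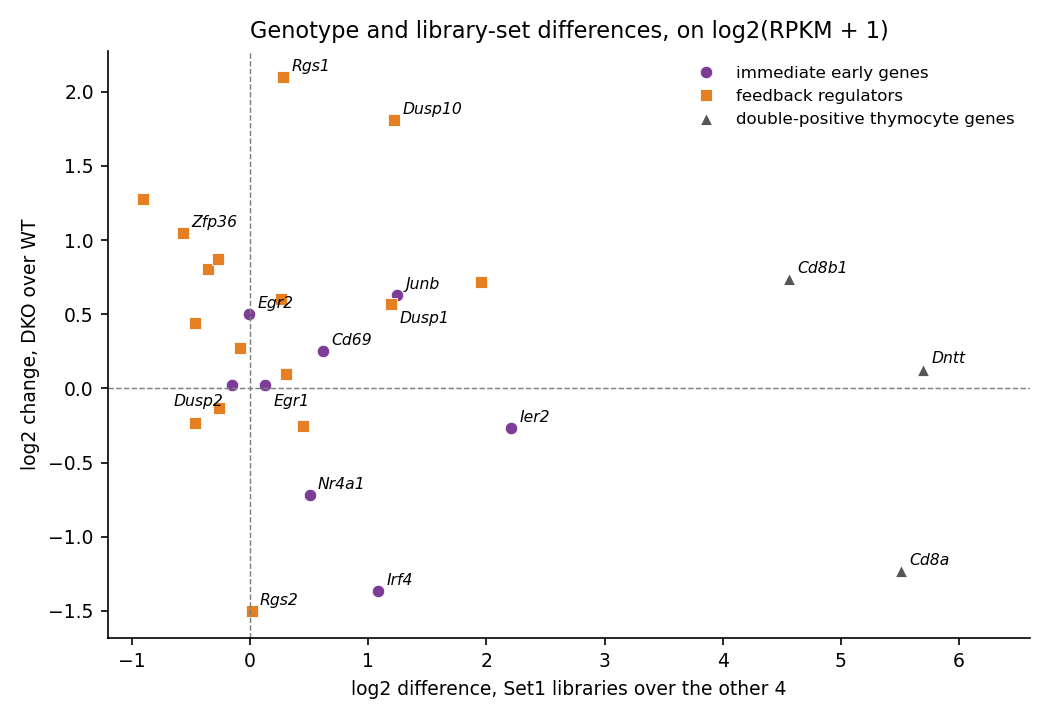
Log2 change of DKO over WT (vertical) against the log2 difference of the Set1 libraries over the other 4 (horizontal), both on log2(RPKM + 1), for the 8 immediate early genes, 16 feedback regulators and 3 double-positive thymocyte genes. Ier2 lies furthest right of the immediate early genes at 2.21, Cd8a, Cd8b1 and Dntt lie at 4.56 to 5.70, and Rgs1 and Rgs2 lie apart along the vertical axis.

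Whether the genotype difference depended on sex was tested next. The genotype by sex term of limma passed for 0 of the 8 and had an unadjusted p under 0.05 for 0 of the 8, against 0.00% and 2.74% of all genes. Irf4 had the largest term, with a log2 change of -2.11 in the female libraries and 0.14 in the single male pair, a difference of 2.25 ± 1.43 (SE). For Nr4a1 the changes were -0.24 in female and -1.67 in male libraries, and for Ier2 -0.76 and 0.72. With 1 male library a genotype, the spread behind these terms came from the female libraries alone, so they say little about a difference between the sexes.

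Genes that respond to handling were compared because immediate early genes do so too. Of 31 listed stress and dissociation genes, 19 were in the table and tested, with 10 above 0 and 9 below, a median log2 change of 0.20 and 0 passing. The summed RPKM of the list was 2810 to 4120 in DKO and 3107 to 3984 in WT, with the chaperone genes Hspa8 and Hsp90ab1 the most abundant. Set1 held the highest sums, 4120 (DKO) and 3984 (WT), against 3714 at most elsewhere, and 10 of the 19 genes lay above 0 in the Set1 contrast with a median of 0.02. The part of handling in the members' levels was not tested. Groups did not overlap for 2 of the 19 (17.2% of all genes), the chaperone gene Hsph1 and Zfp36, described below. Nfkbia, the NF-kappa B inhibitor gene, and Hspd1, a mitochondrial chaperone gene, had the next smallest p, with log2 changes of 0.80 and -0.70 (adjusted p = 0.499 and 0.513, limma). The AP-1 and stress genes Fosb, Atf3, Ier3, Klf6, Hspa1a and Hspa1b had no row.

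Other immediate early transcription factors were few in the table. Of 20 listed, 7 were tested, 4 above 0 and 3 below with a median of 0.22, and 0 passed. Groups did not overlap for 1 of the 7 (17.2% of all genes), Myc (log2 change -0.67, adjusted p = 0.460, limma). Csrnp1 was at 16.1, 33.2 and 11.3 in DKO and 6.39, 14.8 and 8.66 in WT, and Ier5 at 13.8, 1.37 and 4.01 in DKO and 1.27, 0.75 and 3.43 in WT. In both genes the highest library was DKO and the groups overlapped. Klf10, a zinc-finger gene, had a log2 change of -0.68 and also overlapped. Jund, the AP-1 relative of Junb, was at 16.8, 7.29 and 11.3 in DKO and 4.47, 15.5 and 11.6 in WT, so it did not share the Set1 pattern of Junb. Egr3, Nr4a2 and Nr4a3, close relatives of the members, had no row.

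Genes that feed back on receptor and MAP kinase signals restrain TCR responses, and none of them passed. Of 21 listed, 16 were tested, 12 above 0 and 4 below, with a median log2 change of 0.58 beside -0.11 for all genes. Groups did not overlap for 7 of the 16, 6 higher in DKO and 1 lower, where 5.71% and 11.4% of all genes did so. An unadjusted p under 0.05 in limma was reached by 5 of the 16, and by 11.0% of all genes. Rgs1, among these 5 and among the 6 higher in DKO, had a row only through DKO, as given below. The difference from the immediate early genes was not tested. Rgs1, a brake on chemokine receptor signalling, was at RPKM 9.74, 7.08 and 12.7 in DKO and 2.18, 2.27 and 0.47 in WT (log2 change 2.10 ± 0.52, adjusted p = 0.182, limma). All DKO libraries were well above all WT libraries, in Set1 and outside it. Rgs1 exceeded RPKM 3 in DKO alone and so had a row only through DKO, which fixed the direction of its difference. Rgs2, a related gene, went the other way, at 33.5, 24.9 and 47.6 in DKO and 101.7, 98.4 and 95.4 in WT (-1.50 ± 0.28, adjusted p = 0.106, limma). The WT values were nearly equal and the DKO values lay at or below 47.6. Dusp10, a phosphatase gene for stress-activated MAP kinases, was at 46.4, 18.2 and 15.6 in DKO and 10.4, 4.55 and 4.59 in WT (1.81 ± 0.50, adjusted p = 0.220, limma). Set1 was the highest library within each genotype. Zfp36, which encodes a protein that destabilises mRNAs of early genes, was at 47.4, 53.5 and 68.8 in DKO and 18.0, 25.6 and 39.9 in WT (1.05 ± 0.33, adjusted p = 0.276, limma). Dusp6, Nfkbiz and Cblb, named after their values were seen, completed the 7 at log2 changes of 1.28, 0.60 and 0.87. Dusp1 and Tnfaip3, also named afterwards, were highest in DKO replicate 1 at 31.2 and 30.4 and below 10 in the other 5 libraries.

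**Figure D4:**
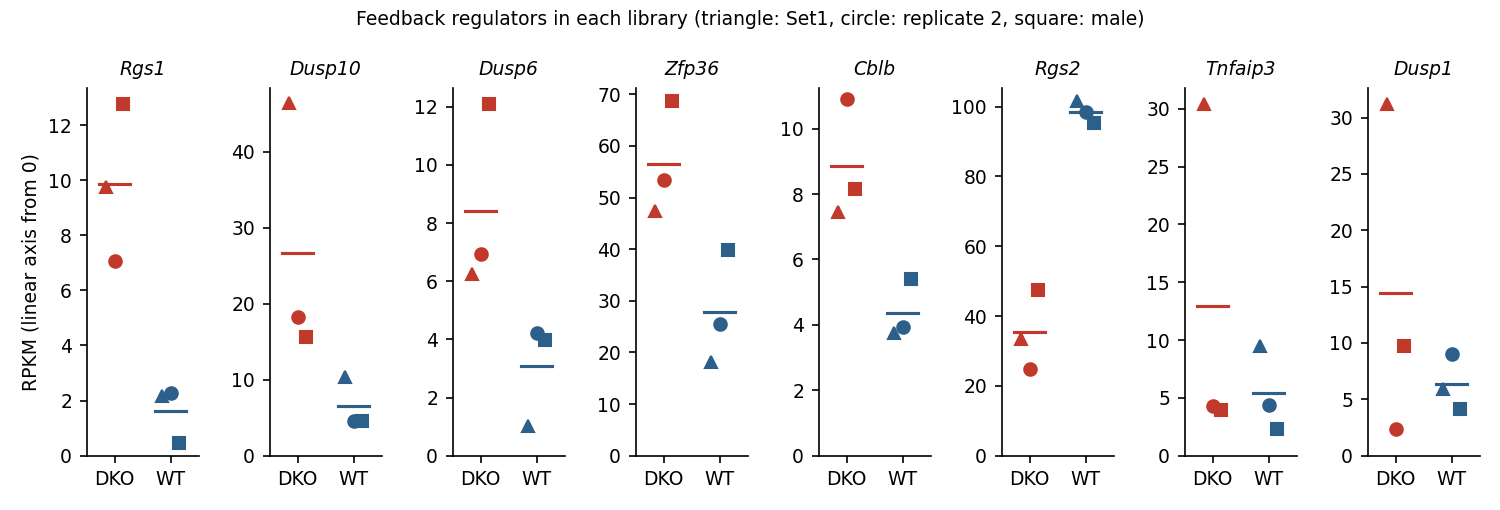
RPKM (linear axis from 0) of 8 feedback regulators in each library, DKO left of WT, with bars for the mean of 3 libraries. Rgs1, Dusp10, Dusp6, Zfp36 and Cblb are higher in every DKO library than in any WT library and Rgs2 is lower, while Tnfaip3 and Dusp1 overlap and peak in the Set1 DKO library. Rgs1 exceeded RPKM 3 in DKO alone and so had a row only through DKO.

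Slower targets of TCR signals in thymocytes were mixed. Of 23 listed, 19 were tested, 9 above 0 and 10 below with a median of -0.07, and 0 passed. Groups did not overlap for 6 of the 19 (17.2% of all genes). Of these, 4 were higher in DKO and 2 lower, where 5.71% and 11.4% of all genes did so. The smallest p were those of Tnfrsf4, Cd5, Cd6 and Cd28, costimulatory or inhibitory receptor genes with log2 changes of 2.25, 0.77, 0.80 and 0.64 (adjusted p = 0.140, 0.186, 0.212 and 0.435, limma). Pdcd1 and Id3, named after their values were seen, did not overlap either and lay below 0 at -0.37 and -0.35. Id3, an EGR target that restrains E proteins, was at 599, 443 and 704 in DKO and 708, 728 and 745 in WT.

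Kinases, adaptors and transcription factors link the TCR to these promoters. Of 29 listed genes 25 were tested, 13 above 0 and 12 below with a median of 0.07, and 0 passed. Groups did not overlap for 4 of the 25 (16%), near the 17.2% of all genes. All 4 were higher in DKO, as were 5.71% of all genes. Crem, a cyclic AMP response factor gene that includes an inducible repressor, was at 36.9, 36.8 and 21.9 in DKO and 11.2, 18.9 and 10.1 in WT (adjusted p = 0.265, limma). Plcg1 and Ppp3ca, named after their values were seen, had log2 changes of 0.39 and 0.44, and Lat (0.32) and Zap70 (-0.36) overlapped.

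AP-1 and IRF4 proteins act as complexes with other factors. Of 15 listed, 6 were tested, 3 above 0 and 3 below with a median of 0.24, and 0 passed. Groups did not overlap for 3 of the 6 (17.2% of all genes). Of these, 2 were higher in DKO and 1 lower, where 5.71% and 11.4% of all genes did so. Batf, whose protein binds DNA with Jun proteins and IRF4, was at RPKM 6.17, 10.1 and 12.9 in DKO and 26.5, 27.0 and 23.3 in WT (log2 change -1.36 ± 0.36, adjusted p = 0.212, limma). Its WT values were nearly equal, unlike those of Irf4. Ikzf1, a lymphoid zinc-finger factor gene, was at 151, 176 and 159 in DKO and 91.9, 108 and 96.8 in WT (0.71 ± 0.20, adjusted p = 0.242, limma). Atf2 (0.80) did not overlap and Ets1 (0.57) did.

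Markers of other cells were compared because many cell types express immediate early genes. NK and gamma-delta T cell markers, of which 5 of 10 were in the table, summed to RPKM 44.5 to 69.8 in DKO and 220.9 to 308 in WT. Most of each sum was the gamma constant gene Tcrg-C1, at 37.7 to 62.2 in DKO and 170.9 to 267 in WT. It was the 1 gene of the 5 that passed (log2 change -2.09, adjusted p = 0.0287, limma). It did not pass in 8 of 20 alternatives, among them voom and the fits without WT replicate 1, 2 or 3, and adjusted p over the 20 ran between 0.0134 and 0.265. All 5 lay below 0, and groups did not overlap for 3 of the 5, all lower in DKO, as were 11.4% of all genes. Klrb1c, among the 3, exceeded RPKM 3 in WT alone and so had a row only through WT, which fixed the direction of its difference. Nkg7 and Gzma overlapped between genotypes. The list shares Klrb1c with the gate markers. Of 11 myeloid and dendritic markers 4 were in the table, summing to 11.0 to 45.5 in DKO and 19.8 to 30.3 in WT, with 0 of the 4 passing. Fcer1g and Cd68 were each at 0 in 2 DKO libraries and in 0 WT libraries. Fcer1g exceeded RPKM 3 in WT alone and so had a row only through WT, which fixed the direction of its difference. Cd74 lay the other way at 29.4, 41.3 and 7.24 in DKO and 6.17, 7.63 and 3.65 in WT, and H2-Ab1 was at 0.66 to 13.7 in DKO and 0.17 to 9.64 in WT. Of 9 B cell markers only Ighm was in the table, at 23.7 to 85.0 in DKO and 58.7 to 75.5 in WT, and Cd79a and Ms4a1 had no row. Of 10 erythroid and stromal markers Hba-a2 alone was listed, at 0.00 to 21.1 in DKO and 0.00 to 1.06 in WT. It exceeded RPKM 3 in DKO alone and so had a row only through DKO. The part of these cells in the Irf4, Nr4a1 and Batf values was not tested.

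The genes whose pattern over 6 libraries was most like the members were found by Pearson correlation of log2(RPKM + 1) with the mean of the members' standardised values. That mean was 0.55 in DKO and 0.42 in WT for Set1 and between -0.47 and -0.09 in the other 4, so the points share depth and set. The most alike were Git2 (r = 0.991), Zfp984, ENSMUSG00000075244, Tab2 and S1pr1 (r = 0.983). S1pr1, the egress receptor gene, was at RPKM 43.7, 14.0 and 25.9 in DKO and 46.0, 20.6 and 18.7 in WT. The most opposed were B2m (r = -0.990), Pdxp, Borcs8, Rtp4 and Dimt1 (r = -0.980). B2m, which encodes the light chain of MHC class I and CD1d, was at 2151, 4571 and 3265 in DKO and 2136, 3686 and 3592 in WT. These coefficients describe 6 libraries and were picked from all genes, so they carry no test.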

How the data were processed

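RNA of sorted thymic NKT cells from 3 DKO and 3 WT libraries was analysed. Per the labels' protocols, polyadenylated RNA followed a published protocol and an indexed Illumina kit. The submitters' processing notes name Bowtie and mm9, with settings, annotation and counting not given in the sources used here. One table of RPKM was deposited by the authors, 10772 rows with a gene length and 1 column per library. Dividing RPKM times length by the value of 1 read in each library gave a whole number, within 0.05, for 99.6% to 100.0% of values, and hence implied totals of 5.04 M to 34.4 M reads. A single read equalled RPKM 0.0153 to 0.105 for a gene of median length. The steps served for read totals, reads per gene with their Poisson intervals, and voom.

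Gene names were updated by identifier from GENCODE M21 (9918 of 10772 matched), and of rows with the same symbol the one with the highest mean was kept (10755 genes). Those reaching RPKM 1 in 3 or more libraries (10694) were tested on log2(RPKM + 1), which understates changes of low genes, with limma 3.58.1 in R 4.3.3 (eBayes with trend, 4 residual degrees of freedom) and a Benjamini-Hochberg adjusted p of 0.05. The genotype by sex term had 2 residual degrees of freedom. Intervals are 95%. Python 3.11.15 with numpy 2.4.6, pandas 2.3.3, scipy 1.17.1 and matplotlib 3.10.9 made the summaries and figures. The fit was also run on simulated libraries drawn without a shared Set1 difference, and no result given here rests on that run. GRCm38 coordinates are given for promoters only and were not mixed with mm9.

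The members and gene lists were chosen with earlier results of these data known. The text names all members, the 4 genes of smallest p on each TCR signalling and handling list, and the 5 genes most and least like the members. One gene that this rule names is not reported here. The Set1 contrast and the genes marked in the text were chosen after seeing the values. No result met the criteria for a closer look: groups of 3 are too small for an outlier test and the genotype by sex terms, resting on 1 male library per genotype, gave no call.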

Additional observations from a re-analysis of the deposited data

How the results depend on the processing

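Under every alternative run, 0 of the 8 immediate early genes passed: pseudocounts, filters, scalings, no variance trend, array weights, a sex term, voom, the 4 libraries outside Set1 and each library left out. The number of genes called in the whole table was 9, and 24 with array weights, 0 with voom (1677 at an unadjusted p under 0.05), 1 in the 4 libraries outside Set1, and between 0 and 13 with 1 library left out (0 without WT replicate 2 or WT replicate 3, 2 without WT replicate 1). Irf4 and Nr4a1 stayed below 0 in 21 of 21 alternatives and Egr2 above 0 (0.02 to 1.48), while the median of all genes moved between -0.14 and 0.01. The sign turned for Dusp2, Ier2, Egr1 and Cd69, and for Junb in the Set1 pair alone (-0.03, no test), and the cause was not tested. With array weights Dusp2 was at -0.0536 and Ier2 at 0.38, with voom Egr1 was at -0.0776, and outside Set1 Dusp2 was at -0.000502. With 1 library left out, Dusp2 ranged from -0.13 to 0.15, Egr1 from -0.18 to 0.18, Ier2 from -0.94 to 0.60 and Cd69 from -0.11 to 0.45. Irf4 alone had an unadjusted p under 0.05 without DKO replicate 1 or DKO replicate 3, and Junb without WT replicate 1.

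Titles number the female libraries 1 and 2 in each genotype, while the descriptions number both DKO females 2. Deviations of same-numbered libraries correlated at 0.23 and 0.15 and those of the male libraries at 0.08, each library's best match among the other genotype, but not all over 0.1, so the numbers were not taken to pair the samples. With a replicate block 0 of the 8 passed (lowest adjusted p = 0.358, limma) and 9 genes in the whole table, and with Set1 as a term 0 of the 8 and 12 genes.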
